A study of Mus musculus with 6 samples.

Results

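The genes described here are 10 genes of MHC class I antigen presentation in mouse embryonic fibroblasts (MEFs), out of 19938 genes measured. They are B2m, Tap1, Tap2, Tapbp, Psmb8, Psmb9, Psmb10, Psme1, Erap1 and Nlrc5, named for their roles in the pathway, and all 10 were found among the probe sets to which the array annotation gives a single gene symbol. Nlrc5 had 19 probe sets and the other genes had 1 each, and for Nlrc5 the brightest one by its mean over the 6 arrays stood for the gene. RNA of cells of 2 genotypes was hybridised to 6 Affymetrix arrays: 3 arrays of MEFs wild-type for H2AX, a histone variant that is phosphorylated at DNA breaks, and 3 arrays of H2AX knockout (KO) MEFs. All cells were cultured in serum-containing medium and received no treatment, and neither the age of the embryos nor the mouse strain is given in the sources used here. Whether the 3 arrays of a genotype came from separate embryos or cultures is not given either, and p-values thus reflect only array-to-array spread, which may be technical.

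MHC class I molecules carry short peptides from the inside of the cell to its surface, where cytotoxic T cells inspect them. Proteasomes cut proteins into peptides, the TAP transporter moves the peptides into the endoplasmic reticulum, aminopeptidases trim them there, and a loading complex fits them into a class I heavy chain paired with beta-2-microglobulin. Fibroblasts carry the pathway at a modest level and raise it when interferon reaches them, through STAT and IRF transcription factors and through NLRC5, a transactivator that acts at class I promoters.

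The promoters of 3 genes that were lower in KO cells are shown first, since their sequence can be read beside the values below. Each runs from 250 bases before the transcription start to 30 bases after it, from RefSeq in build GRCm38.p6. Capitals mark matches, on either strand, to 4 short motifs searched for: an interferon-stimulated response element core GAAANNGAA (ISRE), a gamma-activated site TTCNNNGAA (GAS), a Y box ATTGG and an NF-kB core GGNNTTTCC. The motif TGACGT (CRE) was searched for too.
B2m (chr2:122147437-122147716, + strand): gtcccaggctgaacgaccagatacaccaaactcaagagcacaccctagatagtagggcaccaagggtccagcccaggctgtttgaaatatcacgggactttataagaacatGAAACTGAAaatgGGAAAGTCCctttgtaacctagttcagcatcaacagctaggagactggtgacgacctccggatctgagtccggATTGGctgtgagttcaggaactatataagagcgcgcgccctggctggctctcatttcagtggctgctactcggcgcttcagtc
Tap1 (chr17:34187306-34187585, + strand): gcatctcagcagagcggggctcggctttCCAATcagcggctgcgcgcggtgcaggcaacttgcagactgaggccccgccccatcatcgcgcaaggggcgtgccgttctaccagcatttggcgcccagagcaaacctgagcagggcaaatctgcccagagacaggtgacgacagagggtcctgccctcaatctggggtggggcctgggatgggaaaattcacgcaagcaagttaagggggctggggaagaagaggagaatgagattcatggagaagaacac
Psmb8 (chr17:34197945-34198224, + strand): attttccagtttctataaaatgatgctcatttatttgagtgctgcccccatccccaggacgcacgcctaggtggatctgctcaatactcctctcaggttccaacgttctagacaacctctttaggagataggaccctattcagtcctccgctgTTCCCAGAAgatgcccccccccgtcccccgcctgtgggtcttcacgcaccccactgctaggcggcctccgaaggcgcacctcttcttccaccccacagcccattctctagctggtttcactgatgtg
In the B2m window, the capitals mark an ISRE core at -139 to -131, an NF-kB core on the opposite strand at -126 to -118 and a Y box at -53 to -49, where -1 is the base just before the start. The Tap1 window held a Y box on the opposite strand at -222 to -218, and the Psmb8 window held a GAS at -97 to -89. Of the 10 genes, 8 had a window of 300 bases in the table, and Tap2 and Nlrc5 had none. An ISRE core was in 3 of the 8 windows (B2m, Psme1 and Erap1) and in 8.56% of all 32851 windows. A Y box was in 4 (B2m, Tap1, Tapbp and Psmb9) and in 37.4% of all windows. The GAS was in 1 (Psmb8) against 8.3% of all windows, the NF-kB core in 1 (B2m) against 5.82%, and the CRE in 0 against 7.51%. In the Erap1 window, 2 ISRE cores overlapped each other, at -9 to -1 and at -3 to 6. A match is a description of letters in a window and does not show that a factor binds there.

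The question the design asks of these genes is which of them differed between H2AX KO and wild-type MEFs. In KO cells, Tap1, B2m, Erap1, Psmb8 and Tap2 were lower and none of the 10 genes was higher. The largest difference was that of Tap1, a transporter subunit, at 3.09-fold, and the next was that of B2m, the light chain of every class I molecule, at 1.66-fold. Tapbp, Psmb9, Psmb10 and Psme1 did not pass the test. Neither did the brightest probe set of Nlrc5, although most of the other probe sets of that gene were lower. Differences are given as KO minus wild-type on the log2 scale, from limma with p-values adjusted by the Benjamini-Hochberg method over all genes, and a gene was called at an adjusted p under 0.05. Of all genes tested, 15.0% were called lower and 18.4% were called higher at this threshold, against 5 and 0 of the 10 genes. At an unadjusted p under 0.05, limma gave 6 lower and 0 higher, against 18.0% and 22.7% of all genes. A fold-change over 2 in addition was passed by 1 gene, Tap1, and by 3.18% of all genes in the lower direction. In 5 of the 10 genes every KO array lay below every wild-type array, which was so for 19.5% of all genes. Dim genes were called less often, and with the dimmest 50% of genes left out 2399 of all 9969 genes were lower. Of the 8 presentation genes then tested, 3 were lower. The difference was below 0 for 10 of 10 genes, with a median of -0.27 and a range of -1.63 to -0.04, while the median of all genes was 0.02.

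**Figure D1:**
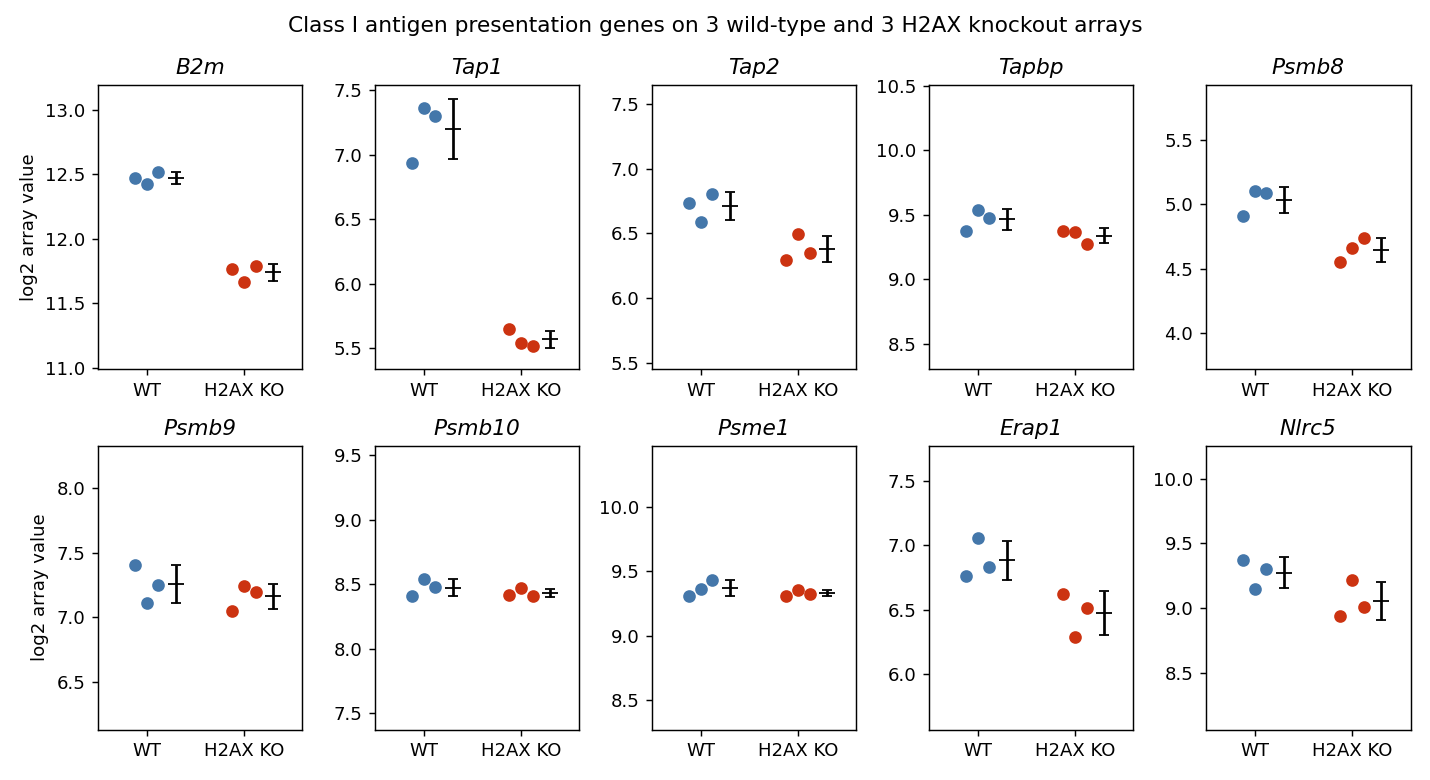
Log2 expression of the 10 class I presentation genes on each array, with 1 panel per gene, points for the 3 wild-type (blue) and 3 KO (red) arrays in replicate order and black marks for the mean ± SD. Every vertical axis spans the same range of log2 units. The KO points of B2m, Tap1, Tap2, Psmb8 and Erap1 lie below all wild-type points, and the points of the other genes overlap.

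The targeted gene was checked first. The H2ax transcript was at 9.05 ± 0.12 (SD, n = 3) on wild-type arrays and at 7.71 ± 0.05 (n = 3) on KO arrays, a difference of -1.34 (SE 0.07, adjusted p = 5.81e-07) and 2.53-fold. It was lower on all KO arrays than on any wild-type array, but a substantial signal remained on the KO arrays. Whether this probe set lies in the deleted part of the gene is not known, so that the remaining signal does not measure how complete the loss is. The Y-linked genes Kdm5d and Eif2s3y, picked after their values were seen, also differed between the genotypes, by -2.88 and -4.04, so that the cells of both genotypes differ in more than H2ax, and the share of these differences in the results below was not tested. Array medians ran from 6.06 to 6.12. Of 14 fibroblast markers measured, 11 lay in the top 25% of genes by level, while 14 of 16 leukocyte markers and 9 of 10 epithelial and endothelial markers lay in the lower 50%. The mean level of the leukocyte markers was 5.06 to 5.07 on wild-type and 5.06 to 5.14 on KO arrays, and that of the epithelial and endothelial markers was 5.31 to 5.36 and 5.27 to 5.42. The fibroblast markers had means of 9.92 to 10.03 on wild-type and 10.14 to 10.15 on KO arrays, and 6 of them were lower and 6 higher in KO cells. Single fibroblast markers differed by far more than these means, with differences of 4.03 for Thy1 and 1.70 for Pdgfrb on the log2 scale and of -2.57 for Fap and -2.15 for Dcn. The part of these differences between the cells in the results below was not tested. RNA from a population of cells cannot tell fewer cells of a kind from less RNA per cell.

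Tap1 and Tap2 pair to form the peptide transporter, each with its own ATP-binding domain, and both were lower in KO cells, with 95% intervals that did not overlap. Tap1 on chromosome 17 was at 6.94, 7.36 and 7.30 on the wild-type arrays of replicates 1 to 3, and at 5.65, 5.54 and 5.52 on the KO arrays. The groups were more than 1 log2 unit apart at their nearest points, and wild-type replicate 1 was the lowest of its group. The difference was -1.63 (SE 0.11, 95% interval -1.87 to -1.39, adjusted p = 1.85e-06). Tap2, also on chromosome 17, was at 6.73, 6.59 and 6.81 on wild-type arrays and at 6.29, 6.49 and 6.35 on KO arrays. The nearest arrays of the genotypes, wild-type replicate 2 and KO replicate 2, lay close together, without overlap. The difference of Tap2 was -0.33 (SE 0.08, 95% interval -0.51 to -0.15, adjusted p = 0.00992), or 1.26-fold. When the same model was fitted to all genes without limma's moderation of the variances, it did not pass (adjusted p = 0.0702).

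B2m on chromosome 2 encodes beta-2-microglobulin, without which class I heavy chains do not reach the cell surface in stable form. It was at 12.47, 12.43 and 12.52 on wild-type arrays and at 11.76, 11.67 and 11.79 on KO arrays. The arrays of each genotype lay within a narrow band and the bands were well apart. The means were 12.47 ± 0.04 and 11.74 ± 0.06 (SD, n = 3 each), and the difference was -0.73 (SE 0.06, 95% interval -0.88 to -0.59, adjusted p = 1.43e-05). Tapbp on chromosome 17 encodes tapasin, the bridge between the transporter and the class I molecule. Its values were 9.38, 9.54 and 9.48 on wild-type arrays and 9.38, 9.36 and 9.27 on KO arrays, so that the groups overlapped. The difference of -0.13 did not pass the test (95% interval -0.28 to 0.03, adjusted p = 0.202).

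Erap1 on chromosome 13 encodes the aminopeptidase of the endoplasmic reticulum that trims peptides to fit class I molecules. It was at 6.76, 7.06 and 6.83 on wild-type arrays and at 6.62, 6.29 and 6.52 on KO arrays, without overlap, and KO replicate 1 lay closest to the wild-type values. The difference was -0.41 (SE 0.10, 95% interval -0.64 to -0.18, adjusted p = 0.0119), or 1.33-fold. It was lost without wild-type replicate 2 (adjusted p = 0.0542) and in the fit without moderation (adjusted p = 0.109).

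**Figure D2:**
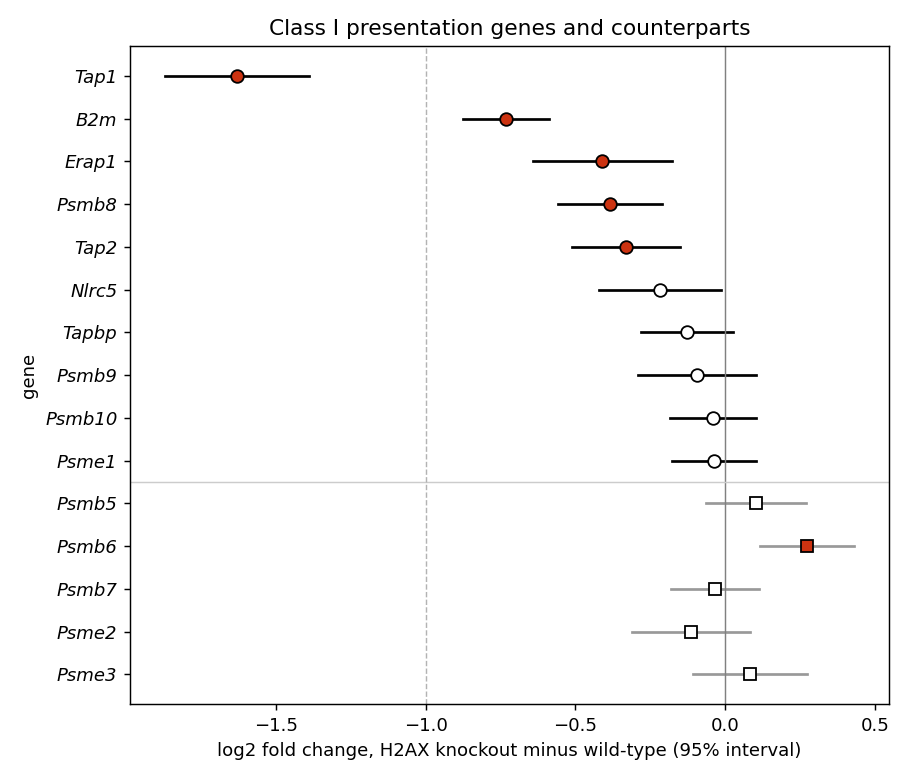
Log2 fold change, KO minus wild-type, of the 10 class I presentation genes (circles) and of 5 proteasome counterparts (squares), with points for the limma estimates and bars for 95% intervals, filled points for adjusted p under 0.05 and a dashed line at a 2-fold fall. All circles lie below 0, from -1.63 for Tap1 to -0.04 for Psme1, and 5 of them are filled, while Psmb6 is the filled square at 0.27.

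Of the immunoproteasome genes, Psmb8 passed the test, and Psmb9 and Psmb10 did not, while the differences among the 3 were not tested. They encode the catalytic subunits that replace the constitutive subunits Psmb5, Psmb6 and Psmb7 in cells exposed to interferon. Psmb8 on chromosome 17 was at 4.91, 5.10 and 5.08 on wild-type arrays and at 4.55, 4.66 and 4.73 on KO arrays. All KO values were below all wild-type values, and the gene lay low on the array scale, with a mean at percentile 21.7 of all genes. Its values in both genotypes lay about at or below the mean level of the leukocyte markers (5.06 to 5.14 over the arrays). No background level of the arrays was used here. Whether the signal of Psmb8 exceeds background in either genotype is thus not known, and its fold may be understated. Its difference was -0.38 (SE 0.08, 95% interval -0.56 to -0.21, adjusted p = 0.00355). Psmb9 on chromosome 17 was at 7.41, 7.11 and 7.25 on wild-type arrays and at 7.05, 7.24 and 7.20 on KO arrays, with overlap and a difference of -0.09 (95% interval -0.29 to 0.10, adjusted p = 0.484). Psmb10 on chromosome 8 was at 8.40, 8.54 and 8.47 on wild-type arrays and at 8.42, 8.47 and 8.41 on KO arrays, with a difference of -0.04 (95% interval -0.18 to 0.10, adjusted p = 0.686). Psme1 on chromosome 14, an interferon-induced subunit of a cap that opens the proteasome, was at 9.31, 9.36 and 9.44 on wild-type arrays and at 9.31, 9.36 and 9.32 on KO arrays. Its difference was -0.04 (95% interval -0.18 to 0.10, adjusted p = 0.705). The intervals of Psmb10 and Psme1 leave room for a change of up to 0.18 on the log2 scale downwards, and that of Psmb9 for 0.29.

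Of the counterparts, Psmb6 was higher in KO cells by 0.27 (SE 0.07, 95% interval 0.11 to 0.43, adjusted p = 0.0137). Psmb5 (0.10, adjusted p = 0.356) and Psmb7 (-0.03, adjusted p = 0.75) did not pass, nor did the cap subunits Psme2 (-0.12, adjusted p = 0.379) and Psme3 (0.08, adjusted p = 0.527). Each inducible subunit was then set against its constitutive counterpart within each array, as the difference of their log2 values. The size of such a difference depends on the probes, and only its shift between genotypes is read here. Psmb8 minus Psmb5 was -6.91 ± 0.01 (SD, n = 3) on wild-type arrays and -7.40 ± 0.15 (n = 3) on KO arrays, a shift of -0.49 without overlap. This shift rests on the low values of Psmb8, which may not exceed background. Psmb9 minus Psmb6 was -3.00 ± 0.14 and -3.37 ± 0.07, a shift of -0.37, also without overlap. Most of it came from the rise of Psmb6 (0.27), while Psmb9 differed by -0.09 and did not pass. The shifts of these 2 pairs reached the smallest p that 3 against 3 arrays allow in a two-sided exact permutation test (p = 0.1, adjusted p = 0.2 over 4 pairs), which is above the threshold. Psmb10 minus Psmb7 shifted by -0.01 (exact permutation p = 0.9, adjusted p = 0.9) and Psme1 minus Psme3, which belong to different caps, by -0.12 (exact permutation p = 0.3, adjusted p = 0.4). In Psmb10 minus Psmb7 and Psme1 minus Psme3 the groups overlapped.

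**Figure D3:**
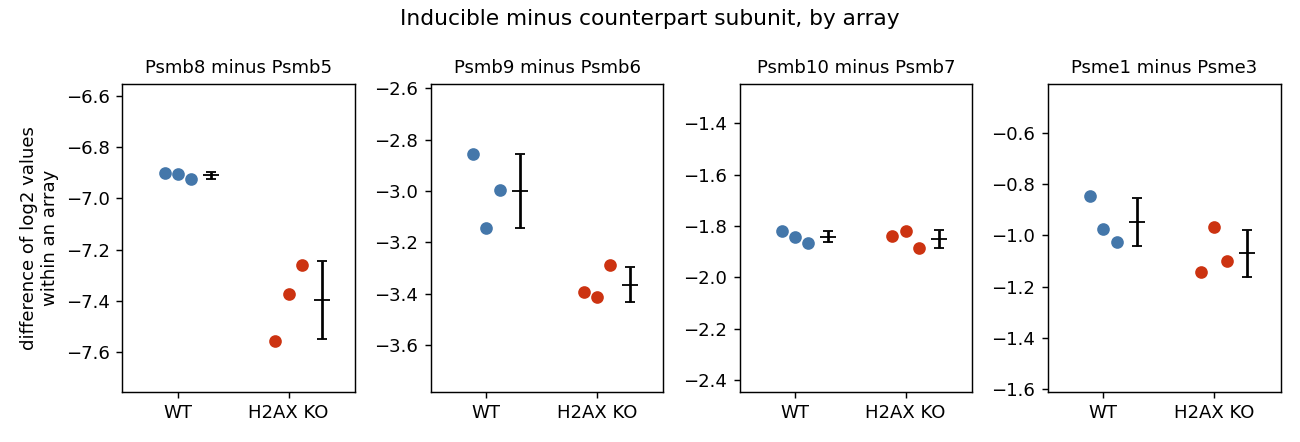
Difference of log2 values between an inducible proteasome subunit and its counterpart within each array, with 1 panel per pair, points for arrays and black marks for the mean ± SD of each genotype (n = 3). KO points lie below wild-type points for Psmb8 minus Psmb5 and Psmb9 minus Psmb6, and overlap them for the other pairs.

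Psmb9, Tap1, Psmb8 and Tap2 lie in this order on chromosome 17 with no other gene between them in the RefSeq table, so that genes side by side differed by 3.09-fold (Tap1) and by an amount that did not pass (Psmb9). The starts of Tap1 and Psmb9 face away from each other on opposite strands with 225 bases between them, so that their promoter windows share 275 of 300 bases, and the Y box in capitals above in Tap1 is the same site as the Y box of Psmb9 at -8 to -4. Tap1 minus Psmb9 within an array, a comparison picked after the values were seen and given without a test, was -0.47, 0.25 and 0.05 on wild-type arrays and -1.41, -1.70 and -1.68 on KO arrays. The KO arrays lay below all wild-type arrays, and the means differed by -1.54. Among the measured class II genes and Brd2 that flank the 4 genes, also picked afterwards, only Brd2, a bromodomain reader of acetylated histones, was called, as higher by 0.20 (adjusted p = 0.0236).

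Nlrc5 on chromosome 8 encodes the transactivator of class I genes, and its call depended on the probe set. The brightest probe set, 10574100, was at 9.37, 9.14 and 9.30 on wild-type arrays and at 8.94, 9.22 and 9.01 on KO arrays. KO replicate 2 lay within the wild-type range, and the difference of -0.22 did not pass (SE 0.09, 95% interval -0.42 to -0.02, adjusted p = 0.098). Without that array the difference was -0.30 (adjusted p = 0.017). The second brightest probe set, 10574102, was at 7.88, 7.89 and 7.91 on wild-type arrays and at 5.93, 5.87 and 5.91 on KO arrays. Its groups were tight and far apart, with a difference of -1.99 (adjusted p = 1.6e-06 over all probe sets). The third, 10574098, differed by -1.75 (adjusted p = 0.000115). All 19 probe sets had a lower mean in KO cells, with differences of -1.99 to -0.10 and a median of -0.61. Of these, 15 were called lower and 0 higher by limma over all 35556 probe sets, of which 10.5% were called lower. In 17 of the 19 every KO array lay below every wild-type array, as in 17.6% of all probe sets. The mean of the 19 probe sets, used as the value of the gene, differed by -0.74 (SE 0.07, adjusted p = 1.74e-05), and with it 6 of the 10 genes were lower. The 19 probe sets measure transcripts of 1 gene on the same arrays and are not replicates, and the brightest probe set was among the 4 that did not pass.

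**Figure D4:**
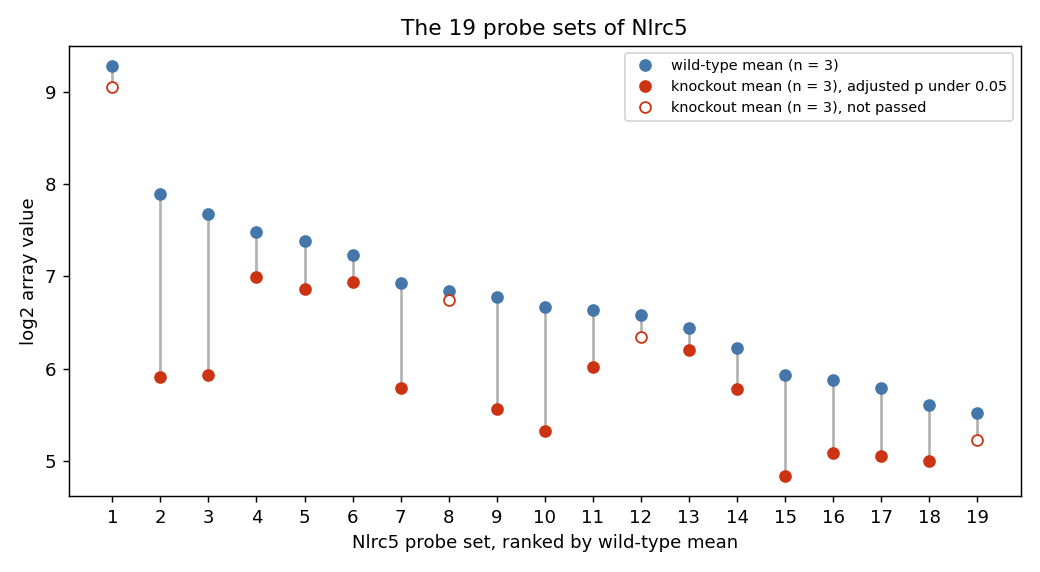
Mean log2 value of each of the 19 Nlrc5 probe sets on wild-type and KO arrays, in order of the wild-type mean, with a filled KO point for adjusted p under 0.05 over all probe sets. The KO mean is lower in all 19, with a difference of -0.22 in the brightest probe set and of -1.99 in the second brightest.

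The rest of the class I pathway was counted from 7 lists of genes, which held 131 genes, 113 of them measured. KO cells had 20 of them lower (17.7%) and 15 higher (13.3%), beside 15.0% and 18.4% of all genes. When the dimmest 50% of genes were left out, 17 of 95 genes of these lists and the class II list were lower and 16 higher. Of all 9969 genes then tested, 2399 were lower and 3095 higher, so that the comparison depends on the level of the genes. In each list the genes named are the largest rises and falls among those called, and others are marked. The class I heavy chains and their relatives had 17 of 30 genes measured, of which 4 were lower (23.5%, against 15.0% of all genes) and 1 higher (5.88%, against 18.4%), with a median of -0.03. Mr1, which presents vitamin metabolites to innate-like T cells, was lower by 2.29-fold (-1.19, adjusted p = 0.000142). The non-classical chain H2-Q4 was lower (-1.01, adjusted p = 4.13e-06), with 6.00, 6.08 and 5.86 on wild-type and 4.97, 5.03 and 4.92 on KO arrays. Its KO values lay about where the leukocyte markers do (5.06 to 5.14 on average), and whether they exceed background is not known, so that the difference may be understated. H2-M3, which presents formylated peptides, differed by -0.71 (adjusted p = 0.000478), and Cd1d2, a lipid-presenting relative, was higher by 0.26 (adjusted p = 0.0429). The call of Cd1d2 was lost in 7 of 13 alternatives, among them those without wild-type replicate 2 or 3 or KO replicate 2 or 3. The classical chains H2-K1 and H2-D1 had no probe set of their own under a single symbol, so that their levels are not given. These heavy chains are near-identical in sequence, and signal can be shared among them.

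The peptide loading chaperones had 14 of 14 genes measured, of which 7 were lower (50%, against 15.0% of all genes) and 0 higher (against 18.4%), with a median of -0.25. An unadjusted p under 0.05 was reached by 8 that were lower and 1 that was higher, beside 18.0% and 22.7% of all genes. These genes are bright, and with the dimmest 50% of genes left out 7 of 14 were lower, beside 2399 of all 9969 genes. Uggt1, which checks the folding of glycoproteins, was 1.84-fold lower (-0.88, adjusted p = 8.29e-06). Pdia3, the thiol oxidoreductase bound to tapasin in the loading complex, was at 11.71, 11.78 and 11.85 on wild-type arrays and at 11.26, 10.95 and 11.16 on KO arrays, a difference of -0.66 (adjusted p = 0.00026). Sel1l, an adaptor for the removal of misfolded proteins, differed by -0.50 (adjusted p = 0.000737). The chaperones calreticulin (Calr, 0.04, adjusted p = 0.751) and calnexin (Canx, -0.07, adjusted p = 0.496), named here beyond the rule, did not pass. Most genes of this list serve the folding of many secreted proteins beside class I molecules.

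The constitutive proteasome core had 0 of 14 genes lower (against 15.0% of all genes) and 1 higher (7.14%, against 18.4%), Psmb6, with a median of 0.00. Before adjustment 0 lower and 2 higher had a p under 0.05, beside 18.0% and 22.7% of all genes. The call of Psmb6 was lost in the fit without moderation, and the count was 3 without KO replicate 2. The activators and assembly factors had 0 of 10 lower (against 15.0% of all genes) and 2 higher (20%, near the 18.4% of all genes). These were Psmf1 (0.27, adjusted p = 0.00709) and Psmg1 (0.24, adjusted p = 0.0206). Before adjustment 0 lower and 3 higher of this list had a p under 0.05, beside 18.0% and 22.7% of all genes. The call of Psmg1 was lost in 6 of 14 alternatives, among them those without wild-type replicate 2 or 3 or KO replicate 3. Of the regulatory particle, 17 genes were measured, of which Psmc4 was lower (-0.33, adjusted p = 0.00586) and Psmd7 higher (0.27, adjusted p = 0.0424). This is 5.88% each, against 15.0% and 18.4% of all genes. The call of Psmd7 was lost in 6 of 14 alternatives, among them those without wild-type replicate 1 or 2 or KO replicate 1 or 3. Among 10 measured peptidases that trim or destroy peptides, 6 were higher (60%, against 18.4% of all genes) and 1 lower (10%, against 15.0%), with a median of 0.24. With the dimmest 50% of genes left out, 6 of 10 peptidases were higher, beside 3095 of all 9969 genes. With an array left out, 3 to 5 were higher, the fewest without KO replicate 3, where Lap3, Dpp9 and Prep were lost. The cytosolic endopeptidase Thop1, known to degrade class I ligands, was higher by 0.78 (adjusted p = 0.00015), the insulin-degrading enzyme Ide by 0.75 (adjusted p = 3.96e-05) and bleomycin hydrolase Blmh by 0.54 (adjusted p = 0.000704). The aminopeptidase Npepps differed by -0.28 (adjusted p = 0.00494).

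Among 31 measured regulators of class I transcription, 7 were lower (22.6%, against 15.0% of all genes) and 4 higher (12.9%, against 18.4%), with a median of 0.02. With the dimmest 50% of genes left out, 7 of 29 were lower, beside 2399 of all 9969 genes. With an array left out, 5 to 7 were lower and 3 to 6 higher. The call of Socs1, as lower, was lost in 10 of 14 alternatives, and those of Irf1 (lower) and Rfxap (higher) in 8 each. The largest falls were in the interferon pathway. Irf7, the factor that amplifies type I interferon responses, was at 7.26, 8.05 and 7.90 on wild-type arrays and at 5.38, 5.60 and 5.54 on KO arrays, a difference of -2.23 (SE 0.17, adjusted p = 6.21e-06), or 4.68-fold. Irf9 (-1.33, adjusted p = 9.72e-05) and Stat2 (-1.29, adjusted p = 1.37e-05), partners in the factor that binds the ISRE, were each lower by over 2-fold. Wild-type replicate 1 was the lowest wild-type array for all 3 of these factors and for Tap1. It was the lowest for 6 of the 10 presentation genes, among them Tapbp, Psmb10 and Psme1, which did not pass. Wild-type replicate 2 was the lowest for the other 4, among them B2m and Tap2, which were called. The share over all genes was not counted, so that no link among these genes is read from this order. Without wild-type replicate 1 the difference of Tap1 was -1.76. The factors that bind class II and class I promoters as a complex moved the other way, Rfx5 by 0.70 (adjusted p = 0.00156) and Rfxank by 0.49 (adjusted p = 0.00226), and the NF-kB subunit Rela was higher by 0.52 (adjusted p = 0.000419).

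For comparison with the other arm of presentation, class II genes and their loading factors had 10 of 12 measured, with a median of 0.10. Of these, 0 were lower (against 15.0% of all genes) and 2 higher (20%, against 18.4%). Before adjustment 0 lower and 3 higher had a p under 0.05, beside 18.0% and 22.7% of all genes. Ifi30, a thiol reductase of the endocytic route that interferon induces, was at 7.69, 7.75 and 7.73 on wild-type arrays and at 9.18, 9.21 and 9.27 on KO arrays, a difference of 1.50 (adjusted p = 5.9e-08). Cd74, the invariant chain, was at 5.04, 5.02 and 4.86 on wild-type arrays and at 6.23, 6.24 and 6.19 on KO arrays, a difference of 1.25 (adjusted p = 4.89e-07). The wild-type values of Cd74 lay about where the leukocyte markers do, so that this difference too may be understated. Ciita, the class II transactivator related to Nlrc5 and named beyond the rule, did not pass (0.06, adjusted p = 0.62).

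**Figure D5:**
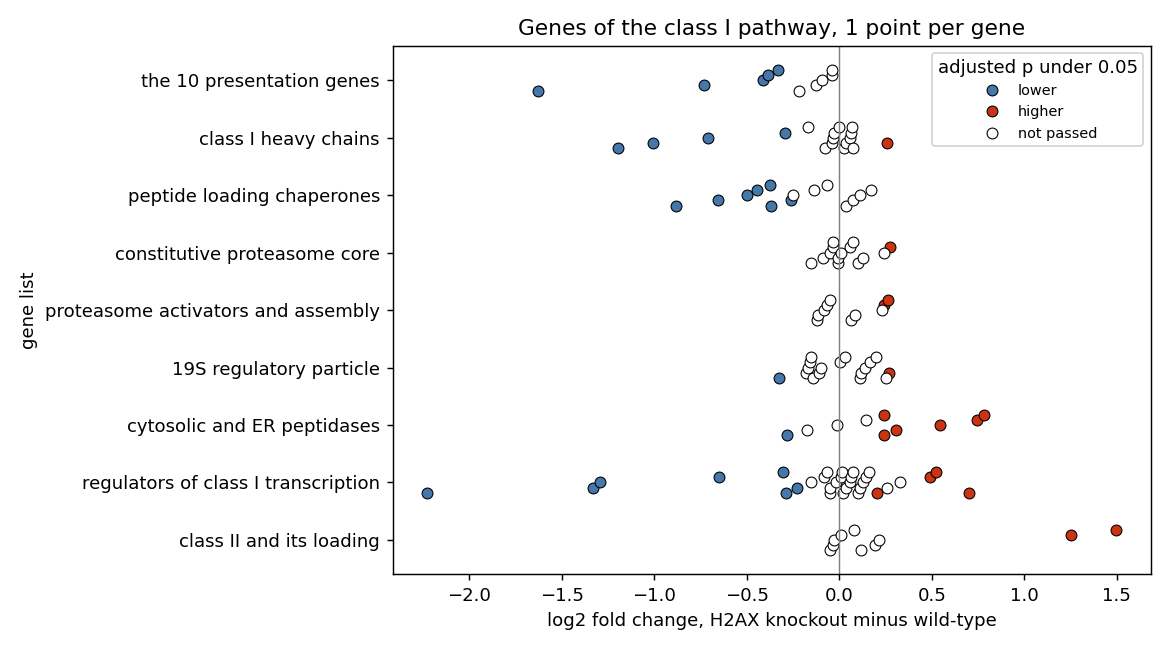
Log2 fold change, KO minus wild-type, of every measured gene of the 10 presentation genes and of 8 lists of the class I and class II pathways, with 1 point per gene, blue for lower, red for higher and open for not passed at adjusted p under 0.05. Falls past 1 on the log2 scale are Tap1, Mr1, H2-Q4, Irf7, Irf9 and Stat2, and rises past 1 are Ifi30 and Cd74.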

How the data were processed

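Total RNA of MEFs was hybridised to 6 Affymetrix Mouse Gene ST arrays, 3 wild-type and 3 H2AX KO, grouped by the submitters' labels. Per the labels and the methods, the authors used Affymetrix Expression Console for CHP files and Partek (version 6.6) for normalization. They deposited 1 log2 value per array for each of 35556 probe sets. How background was corrected, how arrays were normalized and which genome build was used is not given in the sources used here. Gene symbols came from the Mouse Gene 1.0 ST annotation, which the deposited identifiers match, whereas the methods give version 2.0. It lists 23410 of the probe sets, 21789 of them with 1 symbol, and 21698 of these were matched to the RefSeq gene table (GRCm38.p6). Promoters came from the RefSeq table of the same assembly. The brightest probe set by its mean of the 6 arrays stood for a gene, which gave 19938 genes.

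The genotypes were compared by lmFit and eBayes of limma (version 3.58.1, in R version 4.3.3) with no covariates, and p-values were adjusted over all genes by the Benjamini-Hochberg method. The code was tested on simulated data. The 10 genes and the lists were chosen with earlier results of these data known. The genes named were all 10 genes, the constitutive counterparts, H2ax, the 3 largest called rises and falls of each list, and genes between Tap1, Tap2, Psmb8 and Psmb9. Alternatives were the methods' one-way ANOVA, trend and robust estimation, a replicate block, other scaling, a filter on low values, other uses of several probe sets, a fold threshold and each array left out. No pair of arrays of a genotype shared more than 0.087% of identical values. The number of arrays limits the precision. A planned comparison of subunit protein sequences was not made, since no protein table was used here. An item withheld from this text is not reported here.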

Additional observations from a re-analysis of the deposited data

How the results depend on the processing

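B2m, Tap1 and Psmb8 stayed lower in KO cells at an adjusted p under 0.05 in every alternative in which they were tested (14, 13 and 13). Whether the signal of Psmb8 exceeds background is not known, and these alternatives do not decide it. The count of presentation genes lower in KO cells, 5 in limma, was 3 in the one-way ANOVA, where Tap2 (adjusted p = 0.0702) and Erap1 (adjusted p = 0.109) were lost. It was 3 of 8 genes tested when the dimmest 50% of genes were left out, where Tap1 and Psmb8 were not tested. In that setting 2399 of all 9969 genes were lower. The count was 1 with a fold-change over 2. It was 6 with the mean of the probe sets of a gene. With each array left out it ranged from 4 (without wild-type replicate 2, where Erap1 was lost) to 6 (without KO replicate 2, where Nlrc5 passed). Of the 123 measured genes of the class I and class II lists, 20 were lower, against 5 with a fold-change over 2 and 17 to 20 with an array left out. Of the same genes, 17 were higher, against 10 in the one-way ANOVA, 2 with a fold-change over 2, and 10 to 20 with an array left out, of which 11 without wild-type replicate 2 and 10 without KO replicate 3. Over all genes, 2990 were lower and 3676 higher, against 2165 and 2544 in the one-way ANOVA and 634 and 422 with a fold-change over 2. Median centring moved Psme1 to 0.0000567 (adjusted p = 0.999). The shift of Psmb10 minus Psmb7 ranged from -0.021 to 0.012 with an array left out and was above 0 without wild-type replicate 1 (0.0038) or KO replicate 3 (0.012). With an array left out, H2ax ranged from -1.38 to -1.27. The median of all genes moved by 0.012 under quantile normalization and by 0.038 under median centring. The cause of these differences was not tested, beyond the smaller number of genes or arrays that an alternative leaves.

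Deviations from the genotype means correlated at -0.29, -0.24 and 0.08 between same-numbered wild-type and KO arrays, and at -0.16 to 0.32 between differently numbered ones. With 3 arrays per genotype the deviations of a gene sum to 0, so that these correlations cannot decide whether the numbers pair the arrays. With the replicate number as a block, 5 of the presentation genes were lower and 0 higher, as without it, and 18 of the pathway genes were lower and 14 higher.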
